A study of Mus musculus with 12 samples.

Results

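Type I interferon response genes are the genes that cells switch on when interferon alpha or beta binds its receptor. The 49 described here were taken as a list of symbols, from the receptor chains down to the antiviral effectors. The list was chosen with earlier results of these data known. All 49 were among the 25867 genes with a symbol in the deposited counts, and all 49 passed the filter on low counts, as did 18670 genes in all. RNA was measured in thymic epithelial cells sorted from fetal thymic organ cultures, that is, lobes of C57BL/6 mice taken at embryonic day 15.5 and grown in a dish. The lobes of all groups first spent 4 to 5 days with 2'-deoxyguanosine at 1.35 mM, an agent that kills thymocytes. They then had 3 days with an agonist antibody to RANK at 10 µg/mL, which induces AIRE, the regulator that lets medullary epithelial cells transcribe genes of other tissues. There were 4 groups of 3 biological replicates: RosaCre-ERT2 Kat7 fl/fl cultures with tamoxifen (Kat7 knockout), cultures of a genotype labelled control with tamoxifen (control), wild-type cultures with WM-3835 (WM-3835), and wild-type cultures with DMSO (DMSO). KAT7, also called HBO1, is a histone acetyltransferase, and WM-3835 is an inhibitor of it. The Cre is driven from the broadly active Rosa26 locus and switched on by tamoxifen, so Kat7 was open to deletion in every cell type of the lobe, and what genotype the controls carried is not detailed in the labels. The labels give neither a dose nor a duration for the inhibitor, whose sample titles spell it WM-3825.

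Type I interferons signal through the receptor chains IFNAR1 and IFNAR2 and the kinases JAK1 and TYK2, which phosphorylate STAT2. With IRF9, STAT2 is part of the factor ISGF3, which binds the interferon-stimulated response element in the promoters of its target genes, and some targets (IRF7, the RNA sensors, STAT2 itself) feed back into the pathway. In the thymus, medullary epithelial cells are known to make interferon without infection and to express many of these genes at rest.

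The libraries held 26656847 to 52368012 counts assigned to genes with or without a symbol, and each member was counted in every library. Kat7 averaged 0.762 ± 0.138 CPM (counts scaled to library size) in Kat7 knockout and 80.5 ± 7.38 CPM in control cultures (SD, n = 3 each). It averaged 99.4 ± 0.953 CPM with WM-3835 and 87.3 ± 2.37 CPM with DMSO (SD, n = 3 each). The log2 fold change of Aire was -1.11 with WM-3835 (SE 0.08, adjusted p = 3.35e-08, edgeR quasi-likelihood test) and -0.24 in the knockout (SE 0.08, adjusted p = 0.0457). Xist, transcribed from the inactive X chromosome of female cells, split the knockout libraries: it had 1709, 1191 and 4.94 CPM in the Kat7 knockout libraries and 2.34 to 3.17 CPM in the control libraries. In the WM-3835 and DMSO libraries it was at 846 CPM or more, so Xist levels differed within the knockout group and between the DMSO and control groups. Each of the 12 thymic epithelial markers was detected. Markers of other cells summed to less than these, which reached 8769 CPM or more in every library. Thymocyte markers summed to at most 27.4 CPM in any library, with Rag2 at 0 throughout, and macrophage markers to at most 140.9 CPM. Dendritic cell markers summed to 292 to 357 CPM, most of it Tcf4 and Sirpa, and B cell markers to 61.9 to 89.35 CPM. Fibroblast markers summed to 62.5 to 85.4 CPM in Kat7 knockout, 127 to 197 CPM in control, 51.9 to 65.6 CPM in WM-3835 and 58.0 to 75.6 CPM in DMSO libraries. The part of the Xist difference and of these other cells in the results was not tested except where a value is given. In sorted bulk RNA, fewer cells of a type and less RNA per cell cannot be told apart.

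The interferon-stimulated response element can be seen in the promoters of several of these genes. The windows below run from 250 bases before to 50 after a gene's start, in RefSeq's mouse build GRCm38.p6, and capitals mark each match to GAAANNGAA, the core of the element, on either strand. They show a promoter with overlapping copies (Isg15), a near-duplicate pair of neighbouring genes (Ifit3 and Ifit3b), the member with the largest increase under WM-3835 (Gbp2), and a member that rose 1.76-fold with no match in its window (Irf7). The windows are chr4:156200769-156201068 on the minus strand for Isg15, chr19:34583279-34583578 and chr19:34607707-34608006 on the plus strand for Ifit3 and Ifit3b, chr3:142620413-142620712 on the plus strand for Gbp2, and chr7:141266375-141266674 on the minus strand for Irf7.
Isg15: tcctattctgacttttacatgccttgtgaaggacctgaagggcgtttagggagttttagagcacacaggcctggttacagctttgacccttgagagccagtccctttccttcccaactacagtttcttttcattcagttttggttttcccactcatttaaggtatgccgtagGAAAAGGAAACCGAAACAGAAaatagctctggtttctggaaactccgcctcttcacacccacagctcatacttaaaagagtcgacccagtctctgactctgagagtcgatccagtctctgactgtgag
Ifit3: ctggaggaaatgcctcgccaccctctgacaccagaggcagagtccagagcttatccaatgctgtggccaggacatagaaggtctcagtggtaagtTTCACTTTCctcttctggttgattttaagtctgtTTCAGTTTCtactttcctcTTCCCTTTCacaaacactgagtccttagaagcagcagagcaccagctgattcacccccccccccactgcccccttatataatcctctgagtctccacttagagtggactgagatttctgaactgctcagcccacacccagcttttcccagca
Ifit3b: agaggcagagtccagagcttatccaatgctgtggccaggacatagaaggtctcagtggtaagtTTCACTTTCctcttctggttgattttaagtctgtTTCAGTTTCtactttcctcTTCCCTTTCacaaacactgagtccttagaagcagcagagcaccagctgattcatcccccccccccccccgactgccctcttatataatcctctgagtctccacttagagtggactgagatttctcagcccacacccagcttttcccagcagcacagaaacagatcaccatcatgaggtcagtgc
Gbp2: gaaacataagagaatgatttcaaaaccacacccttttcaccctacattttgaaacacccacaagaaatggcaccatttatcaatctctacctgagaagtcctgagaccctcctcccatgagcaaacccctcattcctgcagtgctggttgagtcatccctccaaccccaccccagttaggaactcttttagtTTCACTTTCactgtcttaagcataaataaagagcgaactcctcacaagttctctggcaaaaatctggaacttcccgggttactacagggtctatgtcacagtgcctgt
Irf7: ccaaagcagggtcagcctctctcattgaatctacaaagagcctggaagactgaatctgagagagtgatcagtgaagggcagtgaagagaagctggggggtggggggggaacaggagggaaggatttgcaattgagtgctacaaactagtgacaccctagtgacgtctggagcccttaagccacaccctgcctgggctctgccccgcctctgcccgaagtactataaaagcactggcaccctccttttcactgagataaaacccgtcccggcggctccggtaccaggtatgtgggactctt
The matches in Isg15 begin 78, 72 and 66 bases before its start and overlap one another. Those in Ifit3 begin 155, 121 and 102 bases before the start, and those in Ifit3b at 187, 153 and 134. Gbp2 has 1 match, 58 bases before the start.

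The 49 genes were expressed in all 4 groups, without added interferon. Per transcript length, averaged over the 12 libraries in RPKM (CPM divided by gene length), Ifitm3 stood highest at 1482 RPKM. It was followed by Isg15 at 530.0, Ifit3 at 364.5, Oasl2 at 313.3, Bst2 at 311.5 and Irf7 at 250.5 RPKM, so antiviral effectors led the list. The lowest were the adaptor Mavs at 11.18 RPKM, Ifnar2 at 15.83, Oas3 at 15.89 and Ifnar1 at 16.93 RPKM, which includes both receptor chains. Summed over the members, the Kat7 knockout libraries had 10899, 11256 and 11542 CPM, and the control libraries 10732, 11862 and 12450 CPM. The WM-3835 libraries had 11592, 12631 and 12039 CPM, and the DMSO libraries 9487, 10069.5 and 8866 CPM. The knockout and control sums overlapped, while each WM-3835 sum was above each DMSO sum. The DMSO mean was the lowest of the 4 group means in 40 of the 49 members (81.6%), against 20.8% of all genes tested. The WM-3835 mean was the highest in 30 members (61.2%), against 28.2% of all genes tested.

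**Figure D1:**
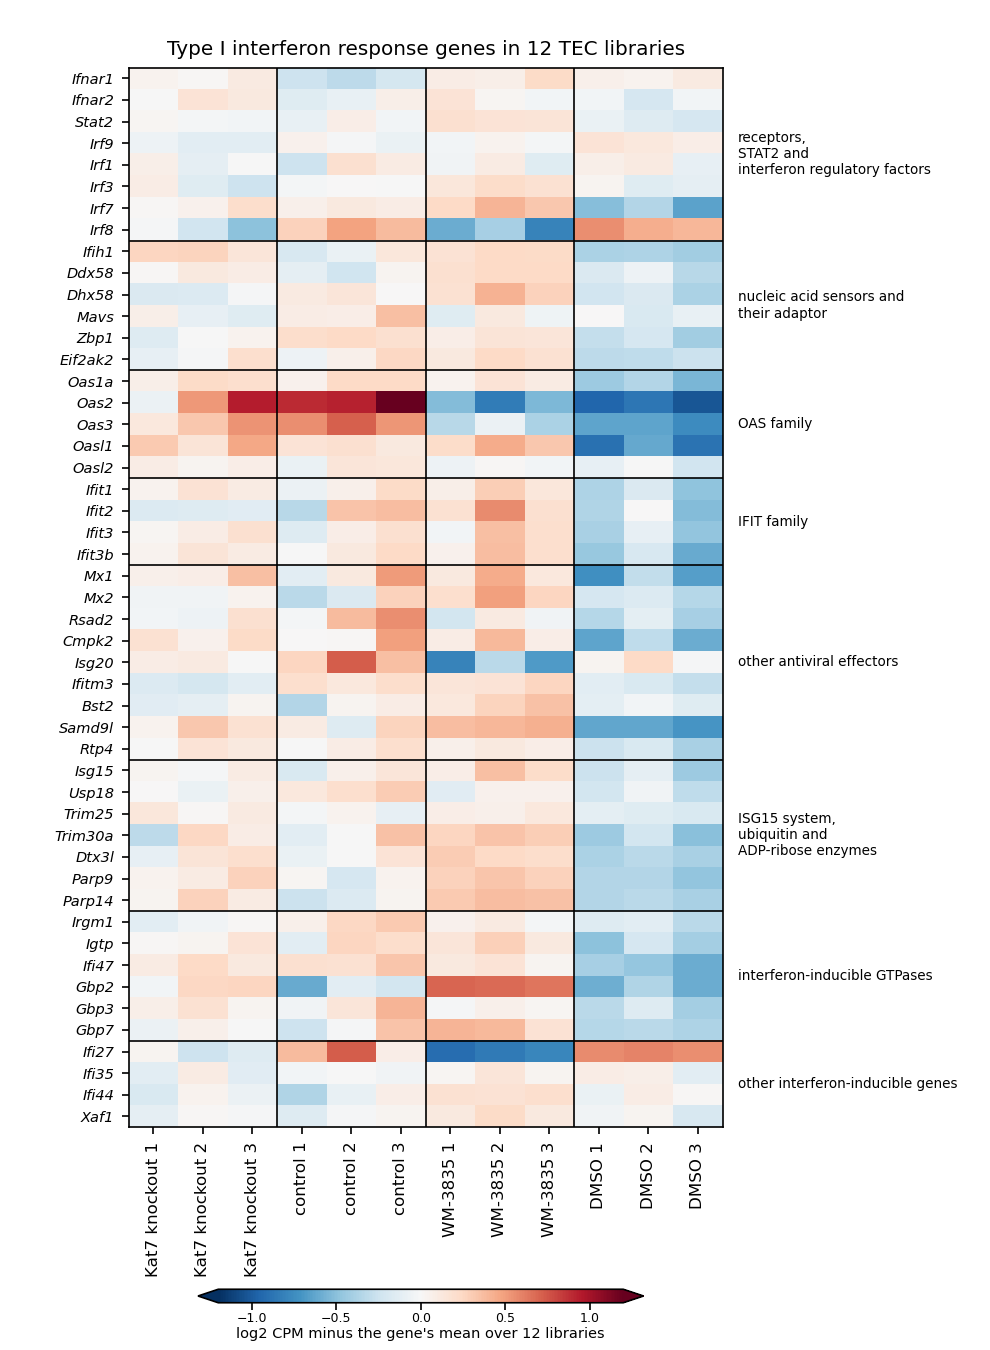
Level of each of the 49 genes (rows, by role) in each of the 12 libraries (columns: Kat7 knockout, control, WM-3835, DMSO), as log2 CPM minus the gene's mean over the libraries; blue is below and red above that mean. Most rows are lowest in the 3 DMSO libraries, and Irf8, Isg20 and Ifi27 run the other way, with their lowest values under WM-3835.

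With WM-3835 against DMSO, 33 of the 49 genes rose and 3 fell at an adjusted p below 0.05. Of all genes tested, 9.34% rose (1744) and 9.35% fell (1746). The increases reached 2.28-fold (Gbp2, a guanylate-binding GTPase), and the decreases 2.67-fold (Ifi27). The median log2 fold change of the members was 0.42, with a range of -1.42 to 1.19, against -0.0092 over all genes tested. In 38 members all 3 WM-3835 libraries were above all 3 DMSO libraries, and in 4 they were below. Among all genes this held for 23.1% and 23% of them. By role, the rises covered 4 of 4 IFIT genes, 6 of 6 GTPases, 6 of 7 genes of the ISG15, ubiquitin and ADP-ribose group, 5 of 6 sensors, 7 of 9 other antiviral effectors, 3 of 5 OAS genes and 2 of 8 receptor, STAT2 and IRF genes. The 3 that fell were Irf8, Isg20 and Ifi27. The other 13 did not pass the test: Ifnar1, Ifnar2, Irf9, Irf1, Irf3, Mavs, Oas2, Oasl2, Rsad2, Usp18, Ifi35, Ifi44 and Xaf1, with log2 fold changes of -0.13 (Irf9) to 0.32 (Oas2). Of the 33 that rose, 27 also did so under every alternative tried, as did the 3 that fell, and the replicates of both groups lay close together (biological coefficient of variation 0.125 with WM-3835 and 0.103 with DMSO). Under WM-3835 the thymic epithelial markers summed to 8769 to 10010 CPM, against 10600 to 12700 CPM in DMSO libraries. Mature medullary epithelial markers summed to 10340 to 12250 CPM in WM-3835 and 13340 to 14770 CPM in DMSO libraries. Of these 14 markers, 7 fell (50%) and 0 rose with WM-3835. Of the 12 thymic epithelial markers, 7 fell (58.3%) and 1 rose. Dendritic cell markers summed to 292 to 313 CPM in WM-3835 and 311 to 324 CPM in DMSO libraries, most of it Tcf4 and Sirpa, of which the first fell and the second rose. Flt3 averaged 0.295 CPM with WM-3835 and 1.36 CPM with DMSO, and Klk1 1.09 CPM with WM-3835 and 3.05 CPM with DMSO, each without overlap. By sign, 6 of the 9 dendritic cell markers tested were higher with WM-3835, of which 1 passed, and 3 were lower, of which 2 passed. Macrophage markers summed to 75.6 to 78.1 CPM in WM-3835 and 54.6 to 73.9 CPM in DMSO libraries. Of the 11 macrophage markers tested, 2 rose: Cd14 averaged 20.8 CPM with WM-3835 and 4.17 CPM with DMSO, and Cd68 averaged 18.6 CPM with WM-3835 and 9.01 CPM with DMSO. C1qa, which did not pass, averaged 2.36 CPM with WM-3835 and 2.78 CPM with DMSO. Lyz2 averaged 22.2 CPM with WM-3835 and 32.4 CPM with DMSO, and Marco 0.25 CPM with WM-3835 and 1.635 CPM with DMSO. Both were lower without overlap, and neither passed. By sign, 7 of the 11 macrophage markers were higher with WM-3835 and 4 were lower. Innate lymphoid and natural killer cell markers summed to 26.1 to 30.4 CPM in WM-3835 and 17.7 to 18.7 CPM in DMSO libraries. The part of these cells in the interferon genes' change was not tested.

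With Kat7 knockout against control, the same genes did not move one way. Of the 49, 4 rose (Ifnar1, Ifih1, Parp14 and Gbp2) and 7 fell (Irf8, Zbp1, Oas2, Isg20, Ifitm3, Irgm1 and Ifi27). Of all genes tested, 6.12% rose (1142) and 8.06% fell (1504). The members' shares were 8.16% and 14.3%, the first near its background. The median log2 fold change was -0.02, with a range of -0.63 to 0.47, against -0.011 over all genes. In 3 members all knockout libraries were above all control libraries and in 9 they were below, where 12.2% and 13.5% of all genes did the same. The replicates of this pair spread more widely (biological coefficient of variation 0.294 in the knockout and 0.469 in control). The counts rested on single libraries: 2 rose without control 1, without control 2 or without knockout 2, 4 fell without control 2, and 3 fell without knockout 1 or without knockout 2. With Xist as a covariate, 0 rose and 1 fell (edgeR), with 4 members higher and 4 lower at an unadjusted p under 0.05. Irf8 was the member whose decrease passed under every alternative, 15 of 15. The other called members passed in fewer: Gbp2 in 14, Ifi27 and Ifitm3 in 13, Ifnar1 in 11, and Oas2 and Isg20 in 8. Irgm1 and Zbp1 passed in 7, Parp14 in 6 and Ifih1 in 5. Fibroblast markers, given above, were lower in each knockout library than in each control library, and dendritic cell markers summed to 318 to 332 CPM in Kat7 knockout and 339 to 357 CPM in control libraries. Most of that sum was Tcf4 and Sirpa, which did not pass the test, while Zbtb46, more particular to dendritic cells, rose, with 12.7 CPM in Kat7 knockout and 6.44 CPM in control libraries (0.98, SE 0.24, adjusted p = 0.0107). Itgax averaged 3.22 CPM in Kat7 knockout and 2.14 CPM in control libraries and did not pass. Klk1, of the same list, fell, with 2.27 CPM in Kat7 knockout and 7.37 CPM in control libraries. Flt3 averaged 0.556 CPM in Kat7 knockout and 1.08 CPM in control libraries and did not pass. By sign, 3 of the 9 dendritic cell markers tested were higher in the knockout and 6 were lower. Innate lymphoid and natural killer cell markers summed to 22.5 to 28.1 CPM in Kat7 knockout and 31.4 to 35.7 CPM in control libraries, without overlap. Mature medullary epithelial markers summed to 9993 to 10600 CPM in Kat7 knockout and 11620 to 13280 CPM in control libraries, also without overlap. Of these 14 markers, 7 fell (50%) and 0 rose. Thymic epithelial markers summed to 12040 to 12770 CPM in Kat7 knockout and 11970 to 13840 CPM in control libraries, which overlapped. The part of these cells in the interferon genes' changes was not tested.

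**Figure D2:**
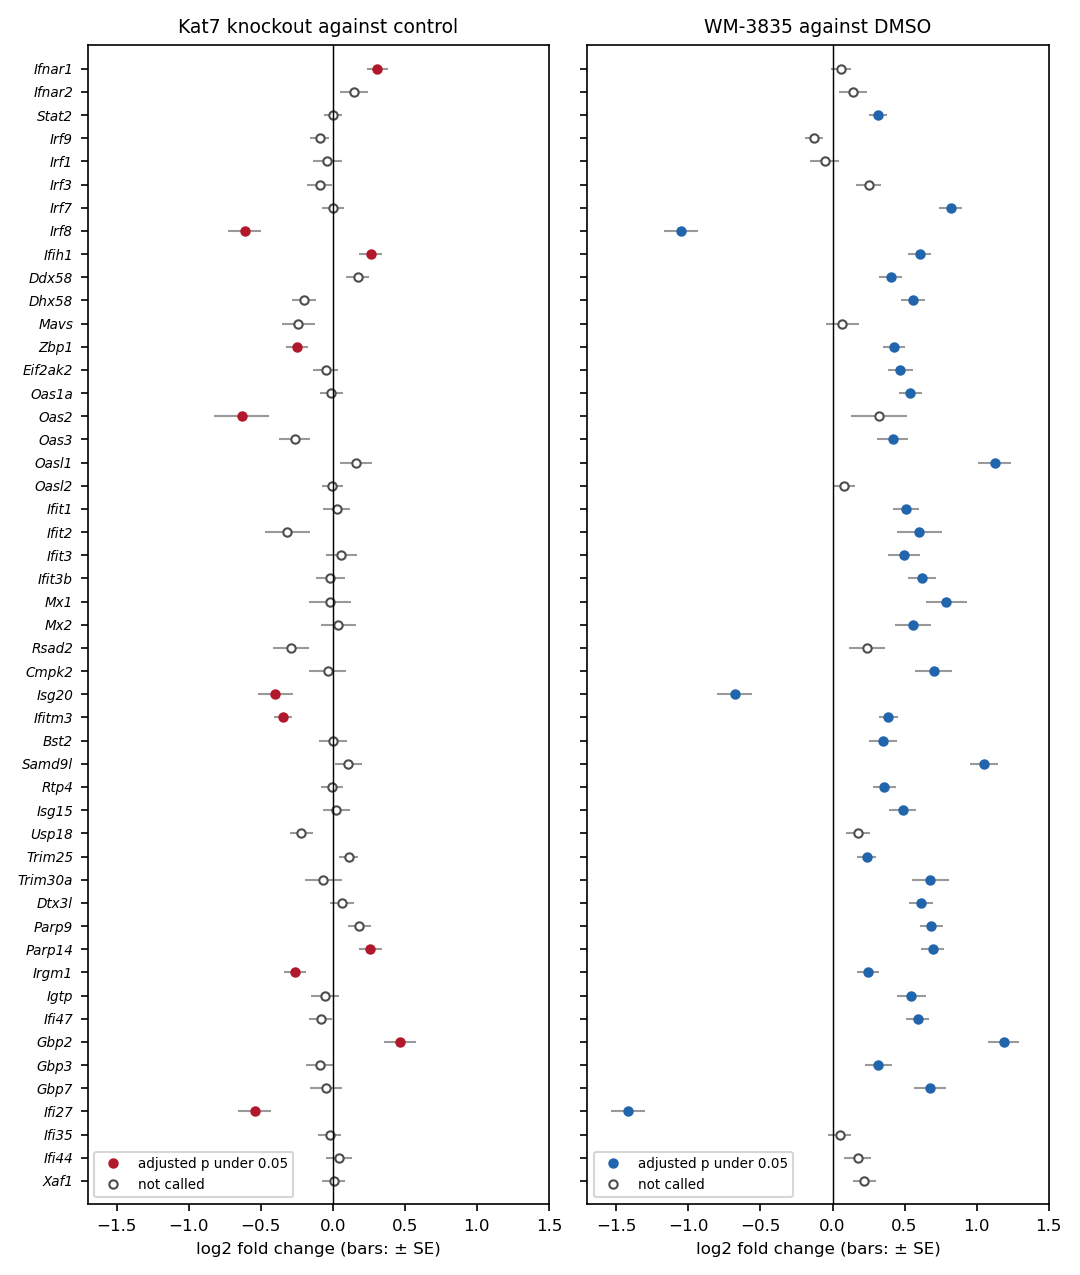
Log2 fold change of each of the 49 genes in 2 comparisons, Kat7 knockout against control and WM-3835 against DMSO, with bars of 1 standard error; filled points passed an adjusted p of 0.05. The WM-3835 points lie mostly right of 0, with a median of 0.42, and the knockout points on both sides of it, with a median of -0.02.

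Among the receptor chains, Ifnar1 had 122, 119 and 127 CPM in Kat7 knockout libraries and 99.6, 95.2 and 102 CPM in control libraries. It had 126, 124 and 138 CPM with WM-3835 and 123, 121 and 128 CPM with DMSO. The knockout rise was 0.31 on the log2 scale (SE 0.07, adjusted p = 0.00732) with no overlap, and the WM-3835 difference of 0.06 did not pass (adjusted p = 0.652). Ifnar2, the chain that carries STAT2, had 50.1, 56.1 and 54.5 CPM in Kat7 knockout and 45.3, 47.1 and 52.6 CPM in control libraries, and 56.2, 50.9 and 49.03 CPM with WM-3835 against 48.9, 43.5 and 48.9 CPM with DMSO. Its differences of 0.15 and 0.14 did not pass. Stat2, the STAT particular to type I and type III interferon signalling, had 478, 462 and 461 CPM in Kat7 knockout libraries and 444, 496 and 460 CPM in control libraries, which overlapped. It had 539, 529 and 524 CPM with WM-3835 and 444, 423 and 410 CPM with DMSO, a rise of 0.32 (SE 0.06, adjusted p = 0.0016). Its partner Irf9 differed by -0.13 with WM-3835, which did not pass.

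Irf7, the interferon regulatory factor that amplifies interferon transcription, had 459, 472 and 526 CPM in Kat7 knockout and 475, 493 and 486 CPM in control libraries. It had 536, 603 and 571 CPM with WM-3835 and 319, 357 and 292 CPM with DMSO. The WM-3835 libraries were all above the DMSO libraries, by 0.82 on the log2 scale or 1.76-fold (SE 0.08, adjusted p = 9.38e-07), and the knockout and control libraries overlapped (log2 fold change 0.00, adjusted p = 0.989). Irf8, best known for the development of dendritic cells and other myeloid cells, fell in both comparisons. It had 81.2, 69.7 and 58.3 CPM in Kat7 knockout libraries and 98.8, 114 and 107 CPM in control libraries, a decrease of -0.61 (SE 0.11, adjusted p = 0.00168). It had 54.2, 61.9 and 46.9 CPM with WM-3835 and 120, 110 and 108 CPM with DMSO, a decrease of -1.05 or 2.07-fold (SE 0.12, adjusted p = 3.86e-06). Neither pair of groups overlapped. Siglech, a marker of plasmacytoid dendritic cells, was at 0 in 10 of the 12 libraries, and the dendritic markers, given above, moved in both directions in each pair. Their part in the fall of Irf8 was not tested. Irf3, which starts interferon transcription after sensing, and Irf1 differed by 0.25 (adjusted p = 0.051) and -0.06 with WM-3835 and did not pass.

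Of the nucleic acid sensors, Ifih1, which encodes the long double-stranded RNA sensor MDA5, was higher in both comparisons. It had 215, 216 and 198 CPM in Kat7 knockout and 157, 170 and 198 CPM in control libraries (0.26, SE 0.08, adjusted p = 0.0332). It had 203, 213 and 210 CPM with WM-3835 and 138, 139 and 134 CPM with DMSO (0.61, SE 0.08, adjusted p = 2.52e-05). The knockout rise of Ifih1 passed in 5 of 15 alternatives and its WM-3835 rise in 13 of 13. The other 2 RNA helicases of the family, Ddx58 (RIG-I) and Dhx58 (LGP2), rose with WM-3835 by 0.41 and 0.56, and Eif2ak2, the kinase PKR that halts translation, by 0.47. Zbp1, a sensor of Z-form nucleic acid, went in opposite directions. It had 150, 166 and 171 CPM in Kat7 knockout and 192, 196 and 190 CPM in control libraries, a decrease of -0.25 (SE 0.07, adjusted p = 0.0322), and 176, 186 and 185 CPM with WM-3835 against 136, 145 and 125 CPM with DMSO, a rise of 0.43 (SE 0.07, adjusted p = 0.000427). The knockout decrease of Zbp1 passed in 7 of 15 alternatives and its WM-3835 rise in 13 of 13. Mavs, the mitochondrial adaptor of RIG-I and MDA5, differed by 0.07 with WM-3835 and did not pass.

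The OAS genes encode synthases of a second messenger of antiviral defence, or relatives of these enzymes. Oasl1, which in mouse restrains the translation of Irf7, had 45.8, 41.2 and 51.0 CPM in Kat7 knockout and 41.2, 42.1 and 40.1 CPM in control libraries, and 42.9, 50.3 and 46.1 CPM with WM-3835 against 19.9, 24.2 and 19.99 CPM with DMSO. The DMSO libraries stood low, and the rise with WM-3835 was 1.12 or 2.18-fold (SE 0.11, adjusted p = 1.71e-06). Oas1a and Oas3 rose with WM-3835 by 0.54 and 0.42. Oas2 is given in full because of its spread, a choice made after its values were seen. It had 56.9, 85.3 and 114 CPM in Kat7 knockout and 110, 113 and 174 CPM in control libraries, and 41.4, 33.2 and 40.9 CPM with WM-3835 against 30.7, 32.5 and 29.3 CPM with DMSO. The knockout and control values overlapped, although the decrease of -0.63 passed (SE 0.19, adjusted p = 0.0344), and the WM-3835 difference of 0.32 did not (adjusted p = 0.3). The IFIT genes, which bind foreign RNA and block its translation, rose together with WM-3835, Ifit1 by 0.51, Ifit2 by 0.60, Ifit3 by 0.50 and Ifit3b by 0.62. Ifit3 and Ifit3b are near-identical copies, as are Oas1a and its tandem relatives, so how counting shared their reads is uncertain.

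Among the other antiviral effectors, Samd9l, a restriction factor that inhibits translation, had 121, 147 and 134 CPM in Kat7 knockout and 126, 106 and 142 CPM in control libraries, which overlapped. It had 152, 155 and 158 CPM with WM-3835 and 76.6, 76.2 and 72.1 CPM with DMSO, a rise of 1.05 or 2.07-fold (SE 0.10, adjusted p = 5.09e-07). Ifitm3, which hinders the fusion of viruses with endosomes, fell in the knockout and rose with the inhibitor. It had 850, 824 and 872 CPM in Kat7 knockout and 1092, 1039 and 1102 CPM in control libraries (-0.34, SE 0.06, adjusted p = 0.00136). It had 1051, 1069 and 1136 CPM with WM-3835 and 870, 837 and 781 CPM with DMSO (0.39, SE 0.06, adjusted p = 0.000232). With WM-3835, Mx1 rose by 0.79 and Mx2 by 0.56 (dynamin-like GTPases), Cmpk2 (a nucleotide kinase) by 0.70, Bst2 (tetherin) by 0.35 and Rtp4 by 0.36, while Rsad2 (viperin) differed by 0.24 and did not pass (adjusted p = 0.21). Isg20, an exonuclease, fell by 0.40 in the knockout (adjusted p = 0.0344) and by 0.68 with WM-3835 (adjusted p = 0.000571).

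Isg15, the ubiquitin-like modifier that stands for this response in many assays, had 407, 393 and 424 CPM in Kat7 knockout and 350, 415 and 439 CPM in control libraries. It had 420, 508 and 461 CPM with WM-3835 and 331, 367 and 293 CPM with DMSO. The WM-3835 libraries were all above the DMSO libraries (0.49, 1.4-fold, SE 0.10, adjusted p = 0.00122), and the knockout and control libraries overlapped (0.02, SE 0.09, adjusted p = 0.896). Parp14, which attaches single ADP-ribose units, had 331, 393 and 347 CPM in Kat7 knockout and 271, 290 and 332 CPM in control libraries, which overlapped at 1 value (0.26, SE 0.08, adjusted p = 0.0363). It had 401, 418 and 413 CPM with WM-3835 and 254, 259 and 248 CPM with DMSO (0.69, SE 0.08, adjusted p = 7.09e-06). The knockout rise of Parp14 passed in 6 of 15 alternatives and its WM-3835 rise in 13 of 13. Parp9, which works in a complex with the ubiquitin ligase Dtx3l, had 207, 215 and 244 CPM in Kat7 knockout and 204, 175 and 207 CPM in control libraries. It had 243, 254 and 243 CPM with WM-3835 and 158, 157 and 145 CPM with DMSO, a rise of 0.69 (SE 0.08, adjusted p = 8.44e-06), while the knockout difference of 0.18 did not pass (adjusted p = 0.143). Dtx3l rose with WM-3835 by 0.62, Trim30a by 0.68 and Trim25, a ligase known for its role in RIG-I signalling, by 0.24. Usp18, which removes ISG15 and damps the receptor, differed by 0.18 and did not pass (adjusted p = 0.16).

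The interferon-inducible GTPases attack vacuoles that hold pathogens. Gbp2 rose in both comparisons. It had 114, 138 and 139 CPM in Kat7 knockout and 76.7, 107 and 99.7 CPM in control libraries (0.47, SE 0.11, adjusted p = 0.00789), without overlap. It had 189, 186 and 182 CPM with WM-3835 and 77.3, 90.7 and 76.9 CPM with DMSO (1.19, SE 0.11, adjusted p = 5.94e-07). Irgm1, a regulator of the other immunity-related GTPases, had 413, 437 and 455 CPM in Kat7 knockout and 472, 534 and 561 CPM in control libraries (-0.26, SE 0.08, adjusted p = 0.0293). It had 469, 486 and 443 CPM with WM-3835 and 405, 413 and 361 CPM with DMSO (0.25, adjusted p = 0.0324). The knockout decrease of Irgm1 passed in 7 of 15 alternatives and its WM-3835 rise in 7 of 13. Gbp7 rose with WM-3835 by 0.68, Ifi47 by 0.59, Igtp by 0.55 and Gbp3 by 0.32.

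Ifi27, a small mitochondrial protein gene, fell furthest with the inhibitor. It had 148, 122 and 130 CPM in Kat7 knockout and 188, 240 and 154 CPM in control libraries, a decrease of -0.54 (SE 0.12, adjusted p = 0.00468). It had 77.0, 80.5 and 84.3 CPM with WM-3835 and 215, 218 and 214 CPM with DMSO, a decrease of -1.42 or 2.67-fold (SE 0.12, adjusted p = 1.78e-07). No library of either treated group reached the lowest of its own comparison group. The remaining Ifi35, Ifi44 and Xaf1 differed with WM-3835 by 0.05, 0.17 and 0.22 and did not pass.

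**Figure D3:**
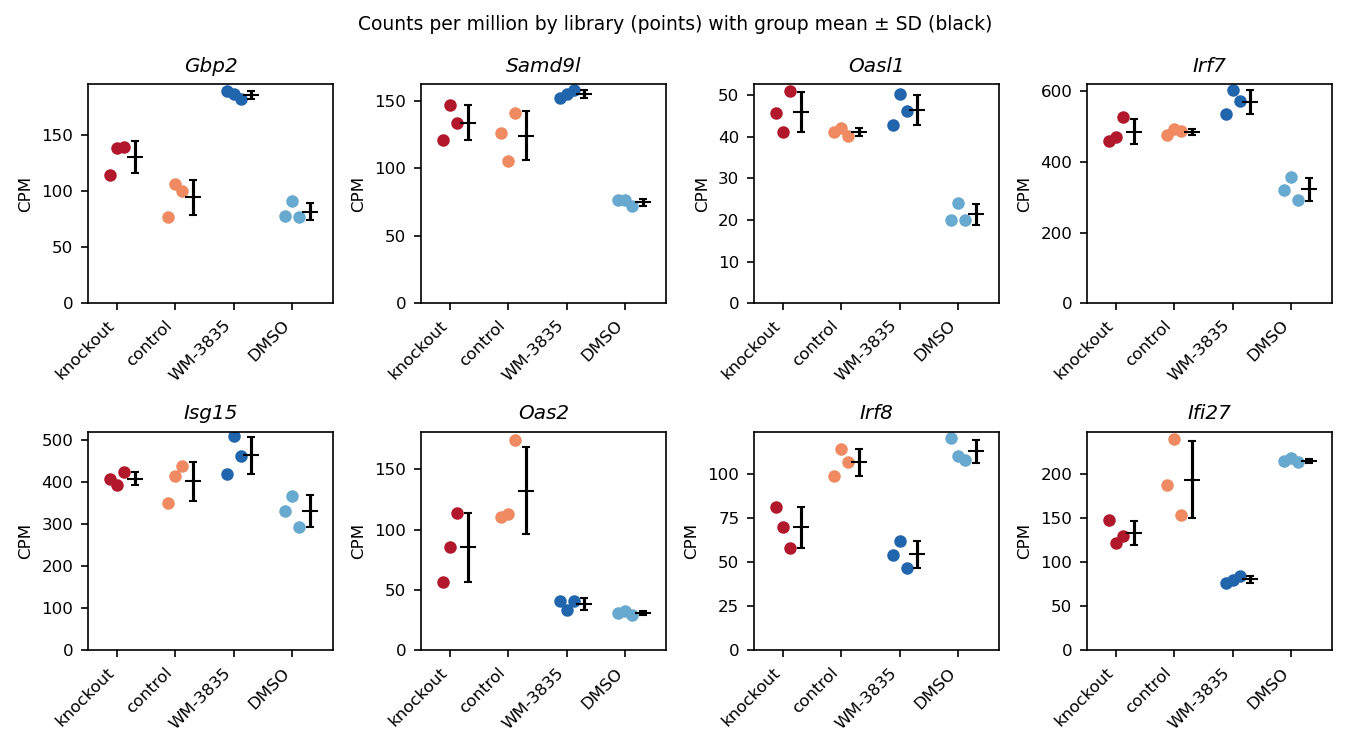
CPM of 8 members in each library (points) with the group mean ± SD (black), for Kat7 knockout, control, WM-3835 and DMSO. For Samd9l, Oasl1 and Irf7 the DMSO libraries lie below the other 3 groups, while for Irf8 and Ifi27 both the knockout and the WM-3835 libraries lie below their comparison groups.

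Promoter matches were counted by direction under WM-3835, as a description. RefSeq's promoter table held 39 of the 49 members, with 47 promoters, and the missing ones were Dhx58, Oas2, Usp18, Mx1, Mx2, Ifi27, Rtp4, Parp9, Parp14 and Zbp1. A match to GAAANNGAA on either strand, overlapping matches allowed, was found for 22 of the 39 (56.4%), against 9.76% of all genes in the table and 8.56% of all promoters. It was found for 20 of the 26 that rose with WM-3835 (76.9%), for 2 of the 11 that did not pass (18.2%; Rsad2 and Ifi44), and for 0 of the 2 that fell (Irf8 and Isg20). The 6 that rose without a match in the window were Irf7, Oasl1, Ifit2, Ifi47, Dtx3l and Cmpk2. The STAT site TTCNNNGAA, whose matches can share bases with the first motif, was found for 13 of the 39 (33.3%), against 9.55% of all genes. It was found for 7 of the 26 that rose (26.9%), for 4 of the 11 that did not pass (36.4%), and for 2 of the 2 that fell, Irf8 and Isg20. A match in these letters is not a binding site, and a window without one says nothing about the factor.

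**Figure D4:**
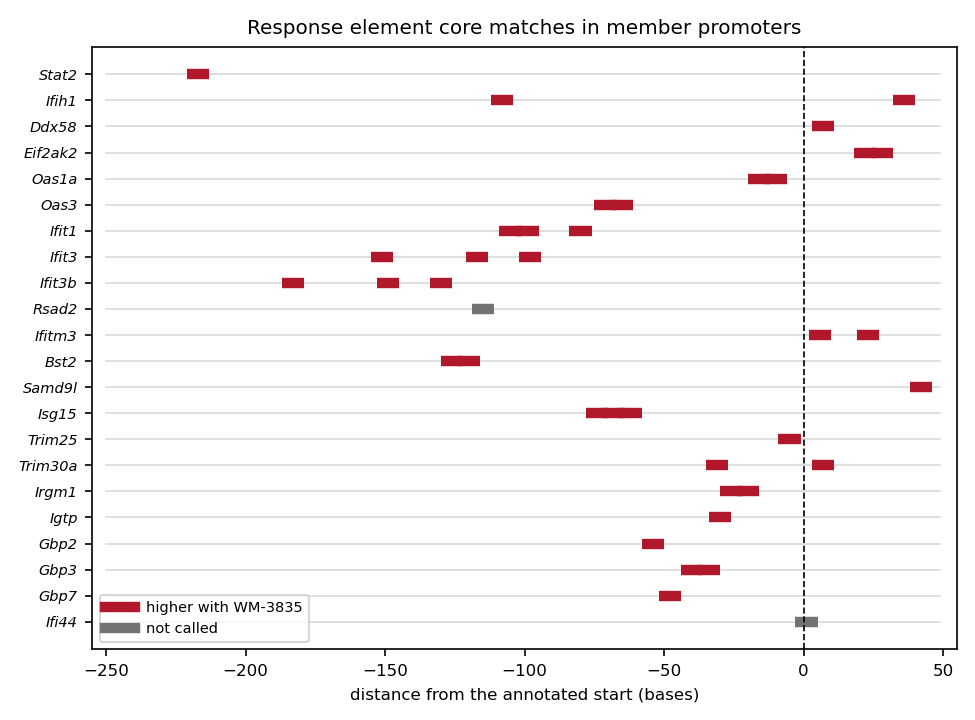
Distance from the gene's start (x axis, in bases) of each match to GAAANNGAA in the promoters of members with a match (rows), coloured by the change under WM-3835; the 2 promoters of Trim30a share a row. Of the 22 members shown, 20 rose with WM-3835 and 2 did not pass the test.

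The reference groups of the 2 comparisons, control with tamoxifen and wild-type with DMSO, differed as well. With DMSO against control, 31 of the 49 members were lower and 1 (Ifnar1, 0.33) was higher, where 13.3% of all genes tested were lower (2479) and 11.4% higher (2121). By role, the lower members were 4 of 4 IFIT genes, 6 of 7 genes of the ISG15, ubiquitin and ADP-ribose group, 5 of 6 GTPases, 4 of 5 OAS genes, 7 of 9 other antiviral effectors, 4 of 6 sensors and 1 of 8 receptor, STAT2 and IRF genes. The median log2 fold change was -0.37, with a range of -2.10 to 0.33. The decreases were widest for Oas2, at -2.10 or 4.29-fold (SE 0.20, adjusted p = 3.72e-07), Oas3, at -1.28 (adjusted p = 9e-08), and Oasl1, at -0.95 (adjusted p = 5.89e-06), which are all of the OAS family. Samd9l was lower by -0.73 (adjusted p = 1.58e-05). Irf7 was lower by -0.59 (adjusted p = 2.1e-05) and Isg15 by -0.28 (adjusted p = 0.0381). The genotype label, tamoxifen and DMSO differ between these groups, as do the Xist levels and Aire (higher with DMSO, 0.92). What goes with which cannot be told apart. Summed markers of several other cell types were below control in every DMSO library, too. These sums were 54.6 to 73.9 CPM in DMSO and 74.4 to 140.9 CPM in control libraries for macrophages, and 17.7 to 18.7 CPM in DMSO and 31.4 to 35.7 CPM in control libraries for innate lymphoid and natural killer cells. They were 13.3 to 14.7 CPM in DMSO and 18.2 to 24.5 CPM in control libraries for thymocytes, and 3.54 to 4.86 CPM in DMSO and 10.2 to 23.1 CPM in control libraries for endothelium, and the fibroblast sums given above did the same. Not all sums were lower. B cell markers summed to 75.8 to 79.5 CPM in DMSO and 61.9 to 78.2 CPM in control libraries, which overlapped. Mature medullary epithelial markers, Aire among them, were higher, at 13340 to 14770 CPM in DMSO and 11620 to 13280 CPM in control libraries. Ptprc, which encodes the pan-leukocyte protein CD45, averaged 1.27 CPM in DMSO and 8.68 CPM in control libraries (-2.81, SE 0.48, adjusted p = 0.000239). The part of these cells in the lower interferon genes was not tested. This comparison shares its control libraries with the knockout comparison and its DMSO libraries with the inhibitor comparison.

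**Figure D5:**
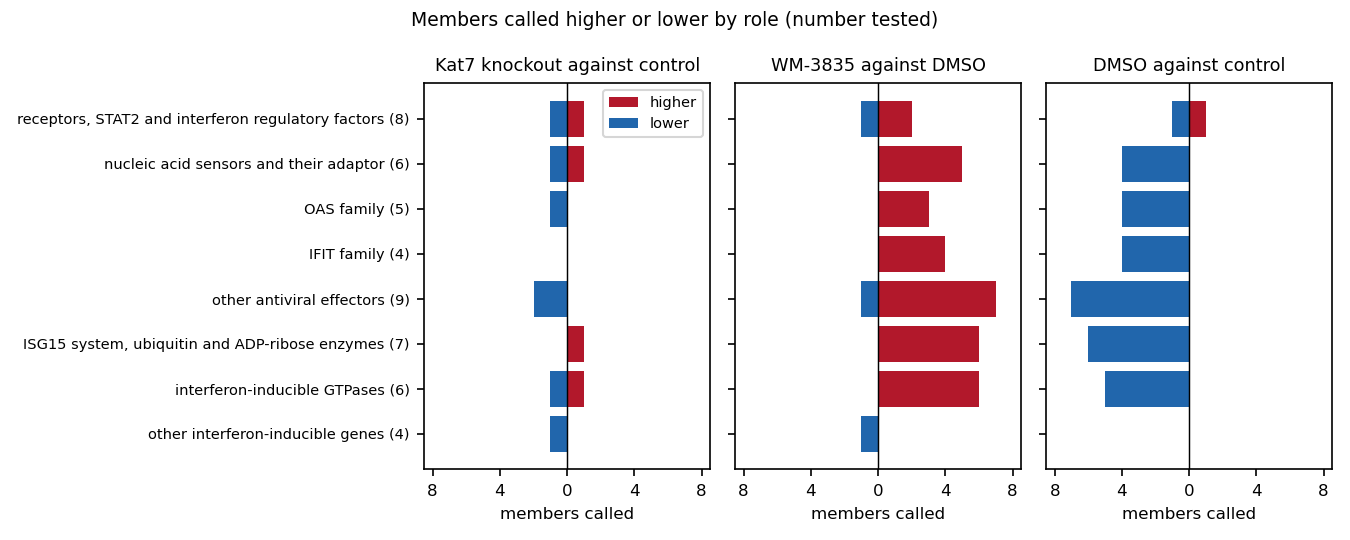
Number of members per role (rows, number tested in brackets) that were higher (red, right of 0) or lower (blue, left of 0) at an adjusted p below 0.05 in 3 comparisons. With WM-3835 the 4 IFIT genes and the 6 GTPases rose, with DMSO against control 4 and 5 of them were lower, and in the knockout a role had at most 2 genes called in a direction.

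The difference between the knockout effect and the WM-3835 effect was tested directly. It passed for 29 of the 49 members, against 10.1% of all genes tested (1887). For 28 of them the knockout effect was below the WM-3835 effect, and for Ifi27 it was above. Each effect has its own reference group, and 31 of the 49 members were lower in DMSO than in control libraries. Unlike effects and unlike reference groups cannot be told apart in this difference. The median difference over the 49 was -0.48 on the log2 scale, with a range of -0.96 to 0.88. It was -0.96 for Oasl1 (adjusted p = 0.00061), -0.94 for Samd9l (adjusted p = 0.000156), -0.82 for Irf7 (adjusted p = 9.75e-05) and -0.73 for Ifitm3 (adjusted p = 3.54e-05). For Ifi27, which fell in both comparisons, it was 0.88 (adjusted p = 0.00165), since the decrease was wider with WM-3835. For Irf8 the difference of 0.44 did not pass (adjusted p = 0.0937). When Xist was a covariate, 8 differences passed: Ifi47, Dhx58, Ifi27, Zbp1, Oasl1, Samd9l, Ifitm3 and Irf7. Knockout 3 lacked Xist like the controls, unlike the other knockout libraries, so this fit rests the knockout effect mostly on knockout 3. A fit with knockout 3 as the sole knockout library is thus not a separate check.

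Pathway genes outside the 49 were followed in fixed lists. Of 43 other interferon-inducible genes tested, 25 rose (58.1%) and 0 fell with WM-3835, with a median log2 fold change of 0.39. In the knockout 3 rose (6.98%) and 9 fell (20.9%). Of all genes tested, 9.34% rose and 9.35% fell with WM-3835, and 6.12% rose and 8.06% fell in the knockout. The share of the list that rose in the knockout was thus near that of all genes. Gbp6 rose in both, by 0.70 in the knockout (adjusted p = 0.000173) and by 1.16 with WM-3835 (adjusted p = 3.42e-07). Slfn5 rose with WM-3835 by 0.94 (adjusted p = 1.06e-06), Mov10, an RNA helicase, by 0.74 (adjusted p = 1.53e-05) and Oas1g by 0.69 (adjusted p = 3.46e-06). In the knockout, Apol9b fell by 1.61 (adjusted p = 1.49e-05) and Apol9a by 1.48, a near-identical pair, and Ifitm2 fell by 0.59 (adjusted p = 0.000531). Of 12 other receptors, kinases and regulators, 4 rose (33.3%) and 1 fell (8.33%) with WM-3835, and 2 rose (16.7%) and 1 fell (8.33%) in the knockout. Both shares that fell were near those of all genes. Jak2, a kinase of the interferon gamma receptor, had 313, 323 and 306 CPM in Kat7 knockout and 197, 237 and 180 CPM in control libraries (0.62, adjusted p = 9.38e-05). It had 342, 336 and 344 CPM with WM-3835 and 175, 187 and 173 CPM with DMSO (0.94, adjusted p = 3.9e-07). Of 17 other nucleic acid sensing genes tested, 8 rose with WM-3835, among them Samhd1, a dNTP hydrolase, by 0.82 (adjusted p = 5.48e-06), and 1 rose and 2 fell in the knockout. Sting1, the adaptor of cytosolic DNA sensing, had 57.3, 57.5 and 62.9 CPM in Kat7 knockout and 115, 108 and 120 CPM in control libraries, a decrease of -0.95 (SE 0.08, adjusted p = 1.06e-06), and its WM-3835 difference of 0.20 did not pass (adjusted p = 0.103).

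The interferons themselves were close to the detection limit. Of 19 ligand genes measured, 8 had a count of 0 in every library and 4 passed the filter (Ifnb1, Ifnz, Ifnl2 and Ifnl3). The 19 summed to 3.34 to 6.20 CPM in Kat7 knockout, 6.10 to 10.55 CPM in control, 2.395 to 3.05 CPM in WM-3835 and 3.53 to 5.87 CPM in DMSO libraries. Ifnb1 had counts of 19, 0 and 0 in Kat7 knockout and 0, 0 and 45 in control libraries, and of 3, 0 and 0 with WM-3835 and 8, 13 and 4 with DMSO. Ifnl2, a type III interferon that uses another receptor and the same STATs, had 0.523, 0.92 and 1.18 CPM in Kat7 knockout and 1.3, 2.46 and 5.37 CPM in control libraries, and its difference of -1.80 did not pass (adjusted p = 0.0959). With WM-3835 it had 0.269, 0.235 and 0.659 CPM, and with DMSO 0.405, 0.299 and 0.538 CPM. With DMSO against control, 1 of the 4 tested ligands was lower (25%) and 0 were higher. Of all genes tested, 13.3% were lower and 11.4% higher there. The 4 ligands' log2 fold changes were -2.86 to 0.05. In the knockout and with WM-3835, 0 of the 4 passed.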

How the data were processed

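The authors deposited, per the file headers, raw counts per gene with an Entrez ID, a symbol and a length. Per the submitters' processing notes, featureCounts and the build mm10 were used; which aligner, annotation or strand setting was used is not given in the sources used here. Libraries were made with TruSeq RNA v2, which does not mark strand, per the labels' protocols, so overlapping and antisense genes cannot be told apart. Rows without a symbol (1312 of 27179, 0.657% to 0.743% of a library) were left out. In edgeR 4.0.16 (R 4.3.3), 1 quasi-likelihood fit covered 12 libraries with 4 group means, TMM scaling and filterByExpr, for 18670 genes, two-sided, with Benjamini-Hochberg adjustment over all of them and a threshold of 0.05. CPM used TMM-scaled library sizes, and RPKM the deposited lengths. Fold changes come from the fit and SDs from CPM. The members and lists were chosen with earlier results of these data known. Members named with a value in every library were Isg15, Irf7, Stat2, Ifnar1, Ifnar2 and, per main comparison, the 8 called members with the smallest adjusted p; pathway genes named were up to 6 per comparison by the same order, and the ligands. Alternatives used DESeq2 1.42.0 and limma 3.58.1 among others. The script was tested on simulated data. No 2 libraries of a group agreed within sampling noise. Libraries held 26656847 to 52368012 counts, and no statement here rests on counting error alone. Results for some pathway genes outside the 49 are not reported here.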

Additional observations from a re-analysis of the deposited data

Results flagged for a closer look

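The difference between the knockout effect and the WM-3835 effect passed the test of that difference itself for 29 members, given here as the log2 fold change of Kat7 knockout over control minus that of WM-3835 over DMSO. The control and DMSO groups themselves differed, so unlike effects and unlike reference groups cannot be told apart in this difference. For Ifi27, which encodes a small mitochondrial protein, it was 0.88. Among STAT2, IRF7 and the sensors it was -0.32 for Stat2, -0.82 for Irf7, -0.76 for Dhx58, -0.67 for Zbp1 and -0.52 for Eif2ak2. In the OAS and IFIT families it was -0.96 for Oasl1, -0.95 for Oas2, -0.68 for Oas3, -0.55 for Oas1a, -0.92 for Ifit2, -0.64 for Ifit3b and -0.48 for Ifit1. Among the other antiviral effectors it was -0.94 for Samd9l, -0.81 for Mx1, -0.74 for Cmpk2, -0.73 for Ifitm3 and -0.36 for Rtp4. In the ISG15, ubiquitin and ADP-ribose group it was -0.74 for Trim30a, -0.55 for Dtx3l, -0.50 for Parp9, -0.46 for Isg15, -0.43 for Parp14 and -0.39 for Usp18. Among the GTPases it was -0.72 for Gbp2, -0.72 for Gbp7, -0.67 for Ifi47, -0.60 for Igtp and -0.51 for Irgm1.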

How the results depend on the processing

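For WM-3835 against DMSO, the count of members that rose was 33 and ranged from 27 to 34 with 1 library left out, and from 30 to 38 over the other alternatives; 27 of the 33 passed in every alternative, the exceptions being Irgm1, Trim25, Ifit2, Gbp3, Oas3 and Bst2. The count that fell was 3, and 4 with limma-voom weights. For Kat7 knockout against control, 4 rose, but 2 with upper-quartile scaling, 1 with limma-voom weights, 1 with only the 6 libraries of the comparison, 0 with Xist as a covariate (edgeR; 4 higher at an unadjusted p under 0.05), 1 with knockout 3 as the sole knockout library (an alternative chosen after seeing the data), and 2 to 5 with 1 library left out. There, 7 fell, but 4 with limma-voom weights, 4 with only the 6 libraries, 1 with Xist as a covariate, 1 with knockout 3 alone, and 3 to 8 with 1 library left out. For DMSO against control, 31 were lower, 23 to 33 with 1 library left out, and 1 was higher, 1 to 2 with 1 library left out (2 without control 2). The difference between the effects passed for 29, for 8 with Xist as a covariate, for 8 with knockout 3 alone, and for 22 to 35 with 1 library left out. These covariate and single-library fits have fewer residual degrees of freedom, and knockout 3 alone is assumed to vary like the other groups. Control libraries had 2.34 to 3.17 CPM of Xist, and of the knockout libraries only knockout 3 was near this, at 4.94 CPM. The covariate fit therefore also rests its knockout effect mostly on knockout 3, so these fits are not separate checks. Beyond this, the cause of the lower counts was not tested. No result changed direction. Replicate numbers did not pair the samples (correlations of deviations -0.0187 to 0.058); with a replicate block, 3 rose and 7 fell in the knockout, 33 rose and 3 fell with WM-3835, 1 was higher and 27 lower with DMSO, and 31 differences passed.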

Other observations

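In genes of the fixed lists picked after their values were seen, the DMSO and control groups stood apart in either direction. Slfn2, a Schlafen gene, averaged 37.5 CPM in DMSO and 83.8 CPM in control libraries (-1.16 on the log2 scale, SE 0.10, adjusted p = 7.73e-08, edgeR), and 61.4 CPM with WM-3835 and 37.5 CPM with DMSO (0.71, SE 0.10, adjusted p = 3.95e-05). Gbp8 went the other way between the DMSO and control groups, with 108.6 CPM in DMSO and 47.1 CPM in control libraries (1.203, SE 0.14, adjusted p = 2.76e-06).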
